A study of Homo sapiens with 6 samples.

Results

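The histone gene cluster at 6p22 was described by the broad ChIP-seq peaks of YAP and TAZ that have their midpoint between 25.9 and 28.4 Mb of chromosome 6 (hg19), an interval of 2.5 Mb. It held 1821 of the 1389618 peaks on chromosomes 1 to 22 and X in 4 libraries. By library these were 479 of 392120 peaks in YAP replicate 1, 453 of 353336 in YAP replicate 2, 430 of 333505 in TAZ replicate 1 and 459 of 310657 in TAZ replicate 2. Within the interval, 3 stretches drawn by position around the histone genes were set against the remaining 1950 kb, here called the rest. Stretch 1 ran from 26 to 26.3 Mb, stretch 2 from 27.05 to 27.15 Mb and stretch 3 from 27.75 to 27.9 Mb, together 550 kb. The stretches held 129 and 120 YAP peaks and 115 and 123 TAZ peaks, 487 in all, and the rest held 350 and 333 YAP peaks and 315 and 336 TAZ peaks, 1334 in all. Members were taken by position alone, not by any value of the peaks, though earlier results of these data were known.

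All libraries came from H1299, a long-established line of human non-small cell lung cancer, starved of serum for 18 h. There were 2 libraries with a YAP antibody, 2 with a TAZ antibody and 2 inputs, 6 samples in all, and no genotype or treatment set the groups apart. The labels did not say whether replicates came from separate cultures, so the errors and p-values measure the spread between libraries of 1 line, which may be technical. The lists hold binding and not expression, so the lung identity of the cells was not checked here. The files do not measure the cell cycle phase of these cells.

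Histone genes of this cluster are replication-dependent: expressed mainly in S phase, they supply core histones H2A, H2B, H3 and H4 and the linker histone H1 to newly copied DNA, and their messages end in a stem-loop in place of a poly(A) tail. Many H2A and H2B genes stand head to head and share a promoter, and H2B promoters carry an octamer read by OCT1 (POU2F1). YAP and TAZ, the coactivators at the end of the Hippo pathway, bind no DNA themselves and reach it mostly through TEAD factors, often beside AP-1. The same band also holds a large group of transfer RNA genes, which RNA polymerase III transcribes, and zinc finger, butyrophilin and olfactory receptor genes.

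In the RefSeq gene order of build GRCh38.p14, 53 histone genes between TRIM38 and OR2B2 fell into 3 runs. The first ran from H1-1 to H4C8 with 32 genes: 5 of H1, 4 of H2A, 8 of H2B, 7 of H3 and 8 of H4. The second, from H2BC11 to H2AC12, held 5 genes, namely 2 of H2A, 2 of H2B and 1 of H4. The third, from H2BC13 to H2BC17, held 16 genes: 1 of H1, 5 of H2A, 4 of H2B, 3 of H3 and 3 of H4. The runs themselves contained 0 annotated tRNA genes, whereas 47 lay between the first run and the second and 51 between the second and the third. By this order, the tRNA genes lie among the sequence that separates the histone runs. Because this gene table follows another build than the peaks, no peak was assigned to a gene.

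Promoters of 48 of the 53 genes were given by RefSeq (GRCh38.p14), in 52 windows that reach from 250 bases before to 50 after the start. They overlapped in 9 head-to-head pairs, 8 of them an H2A gene with an H2B gene, such as H2AC6 with H2BC4, and 1 of H2BC7 with H3C4. Of each histone kind, the first gene by position among those with a given promoter is printed from 150 bases before to 25 after its start. Promoters were chosen because these are the sequences that regulate the genes the stretches were drawn around. Capitals mark the TATA box (TATAAA), the CCAAT box and the octamer (ATTTGCAT), each on either strand. The TEAD motif (GGAATG) and the AP-1 motif (written TGANTCA) were also searched and had no match in the printed stretches.
H1-1: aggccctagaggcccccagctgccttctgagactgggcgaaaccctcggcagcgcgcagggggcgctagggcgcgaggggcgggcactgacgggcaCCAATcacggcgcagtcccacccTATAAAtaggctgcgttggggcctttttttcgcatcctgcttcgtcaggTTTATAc
H2AC4: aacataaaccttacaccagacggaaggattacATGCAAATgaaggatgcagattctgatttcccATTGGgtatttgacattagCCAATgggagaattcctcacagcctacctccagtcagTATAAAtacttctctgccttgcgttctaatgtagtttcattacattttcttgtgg
H2BC3: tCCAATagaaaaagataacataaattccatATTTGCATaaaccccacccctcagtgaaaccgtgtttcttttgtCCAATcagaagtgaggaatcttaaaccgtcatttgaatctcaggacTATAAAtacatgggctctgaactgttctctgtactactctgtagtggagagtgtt
H3C1: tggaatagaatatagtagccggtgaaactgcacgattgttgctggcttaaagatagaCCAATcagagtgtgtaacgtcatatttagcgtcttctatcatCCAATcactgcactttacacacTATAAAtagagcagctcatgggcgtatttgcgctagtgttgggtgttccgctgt
H4C2: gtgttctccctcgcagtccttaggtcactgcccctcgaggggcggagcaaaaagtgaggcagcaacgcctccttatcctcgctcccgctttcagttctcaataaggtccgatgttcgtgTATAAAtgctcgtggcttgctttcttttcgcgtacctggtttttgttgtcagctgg
The H1-1, H2AC4, H2BC3, H3C1 and H4C2 promoters each had TATAAA 29 to 31 bases before the start; H1-1 had a second, reversed match after it. H2AC4 and H2BC3 both carried the octamer, and H4C2 carried no CCAAT in its window.

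Over all 52 windows of these histone genes, 34 (65.4%) held TATAAA, against 11.5% of 35093 promoters of all genes. CCAAT was present in 45 (86.5%), against 34.6%, and was in every window of H1, H2A, H2B and H3 but in only 3 of 10 of H4. The octamer was present in 21 (40.4%), against 1.77%: in 8 of 10 windows of H2A, 12 of 16 of H2B, 1 of 10 of H3 and none of the 6 of H1 and the 10 of H4. The TEAD motif was present in 5 (9.62%), against 14.0%, and the AP-1 motif in 1 (1.92%), against 7.71%. Paired genes share bases, so their windows are not independent, and a match is a string of letters and not a bound site.

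The files give no read totals, so the depth of each library is unknown; list length moves with depth and says nothing by itself of how much protein was bound. All 4 lists name the same input in their peak names, so the libraries may share their background. To set every library on the same footing, strong peaks were defined as the 20000 peaks of a library with the highest −log10 q. The fold is the authors' ratio of antibody signal to input across a peak.

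Peaks of both antibodies were denser across the histone cluster than in the genome at large. The interval held 1.60 times the genome's peaks per Mb on average and 1.32 times those of the rest of chromosome 6. Deposited peaks covered 26.9% and 24.2% of its bases in YAP libraries, and 22.2% and 20.8% in TAZ libraries, against 16.9% and 14.8% (YAP) and 13.3% and 14.0% (TAZ) genome-wide. The interval was higher than the genome in 4 of 4 libraries, for which an exact two-sided paired permutation test gives p = 0.13, the smallest that 4 libraries allow. Against the adjoining block up to 33.4 Mb, which holds the major histocompatibility complex, the measures went in different directions. The interval had 1.11 and 1.07 times the block's peaks per Mb with YAP, and 1.04 and 1.14 times with TAZ, and its strong peaks per Mb were also higher in 4 of 4 libraries (mean ratio 1.33 ± 0.265, SD, n = 4). The block was nevertheless covered to 29.2% and 28.3% in YAP libraries, and 27.5% and 30.2% in TAZ libraries, more than the interval in each.

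Strong peaks numbered 46 and 39 in the interval in YAP libraries, and 43 and 47 in TAZ libraries. That is 18.4, 15.6, 17.2 and 18.8 per Mb, against a genome value of 6.59 that the definition fixes for every library. Chromosome 6 outside the interval was as rich, with 18.1 and 15.9 per Mb in YAP libraries, and 14.9 and 15.6 in TAZ libraries. As a share of the interval's peaks, strong ones made up 9.60% and 8.61% (YAP) and 10.0% and 10.2% (TAZ). The background over all peaks was 5.1% and 5.66% in YAP libraries, and 6% and 6.44% in TAZ libraries. The interval's share thus lay above the genome background and below that of the rest of chromosome 6, which was 11.8%, 10.9%, 11.3% and 12.6% in the same order of libraries.

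Peaks of higher fold were less clearly concentrated in the interval. A fold of at least 4 was reached in the interval by 66 and 30 YAP peaks (13.8% and 6.62%) and by 49 and 31 TAZ peaks (11.4% and 6.75%). The background was 9.22% and 7.52% with YAP, and 9.68% and 5.6% with TAZ, so that YAP replicate 2 went the other way than the remaining libraries. On the rest of chromosome 6 this share was 11.9% and 8.59% with YAP, and 11.2% and 7.29% with TAZ, so the interval was higher in 2 of 4 libraries. Among peaks with a fold of 3 to 4, the median −log10 p in the interval exceeded that of the genome by 0.995 and 0.593 in the YAP libraries and by 0.406 and 0.587 in the TAZ libraries. Against the rest of chromosome 6 the difference in median −log10 p was -0.110 and -0.116 with YAP, and -0.155 and 0.0659 with TAZ. At one fold this value moves with the number of reads behind a peak, and its part in the density of peaks was not tested.

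Inside the cluster, the histone stretches had more peaks than the rest with both antibodies. They held 234.5 and 218.2 peaks per Mb in YAP libraries, and 209.1 and 223.6 in TAZ libraries, against 179.5 and 170.8 (YAP) and 161.5 and 172.3 (TAZ) in the rest. The ratio was 1.31 and 1.28 in YAP libraries, and 1.29 and 1.30 in TAZ libraries, with a mean of 1.29 ± 0.0122 (SD, n = 4). It lay above 1 in 4 of 4 libraries, and its spread between libraries was small beside its distance from 1 (exact two-sided paired permutation p = 0.13, the smallest possible). With peaks of a fold of at least 4 alone the mean ratio was 1.10 ± 0.150 (SD, n = 4; exact two-sided paired permutation p = 0.25), within the spread between libraries of no difference.

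Peaks also covered more of the histone stretches, 30.9% and 27.3% in YAP libraries, and 29.2% and 25.2% in TAZ libraries, against 25.8% and 23.3% (YAP) and 20.2% and 19.6% (TAZ) of the rest. The difference was 5.16 and 4.01 percentage points with YAP, and 8.96 and 5.67 with TAZ, a mean of 5.95 ± 2.13 (SD, n = 4; exact two-sided paired permutation p = 0.13). Restricted to peaks of fold 4 or more, the mean difference was 0.278 percentage points and did not exceed the spread between libraries. Most of the extra coverage of the histone stretches was under peaks with a fold below 4.

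**Figure D1:**
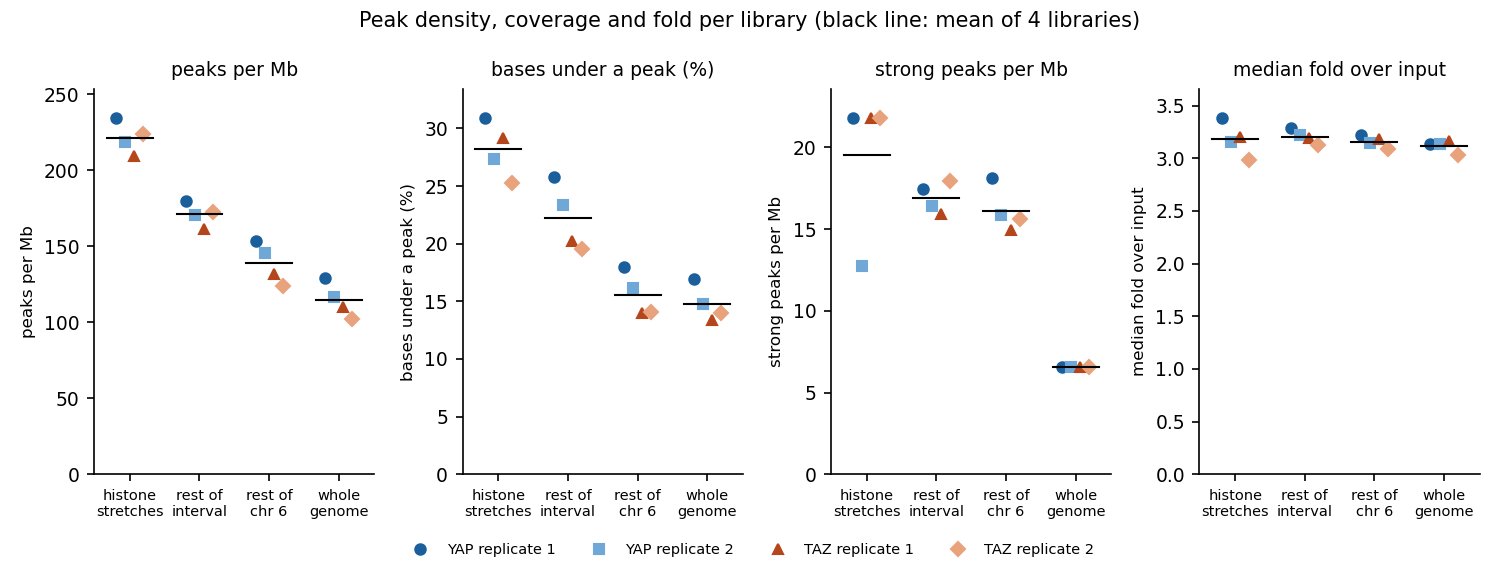
Peaks per Mb, percent of bases under a peak, strong peaks per Mb and the authors' median fold over input in the histone stretches, the rest of the interval, the rest of chromosome 6 and the whole genome. Points are libraries and black lines means of the 4; the stretches lie above the rest in peaks per Mb and in coverage in each library, while the median fold stays near 3 everywhere.

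The number of strong peaks did not differ between the stretches and the rest beyond the spread between libraries. Strong peaks numbered 12 and 7 in the stretches in YAP libraries, and 12 and 12 in TAZ libraries, against 34 and 32 (YAP) and 31 and 35 (TAZ) in the rest. Per Mb, the stretches held 1.15 times as many strong peaks as the rest over the 4 libraries, and YAP replicate 2 went the other way with 0.776 (exact two-sided paired permutation p = 0.5). With 5000 strong peaks per library the ratio was 1.77, and the stretches were then higher in 4 of 4 libraries (exact two-sided paired permutation p = 0.13, the smallest possible). The SD between libraries was then 1.17, more than the distance of this ratio from 1.

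The median fold was 3.39 and 3.15 in the stretches in YAP libraries, and 3.20 and 2.99 in TAZ libraries, against 3.28 and 3.22 (YAP) and 3.19 and 3.12 (TAZ) in the rest. The stretches were higher in 2 libraries and lower in the other two, with a mean difference of -0.0249 ± 0.103 (SD, n = 4; exact two-sided paired permutation p = 0.75). Peaks with a fold of at least 4 were a smaller share of the stretches' peaks, 12.4% and 5.00% with YAP, and 10.4% and 6.50% with TAZ, against 14.3% and 7.21% (YAP) and 11.7% and 6.85% (TAZ) in the rest. This share was lower in the stretches together in 4 of 4 libraries (exact two-sided paired permutation p = 0.13). By stretch, it was below the rest in each library in stretch 1 alone. Stretches 2 and 3 were each above the rest in 3 of 4 libraries, with YAP replicate 2 below it in both.

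Very wide peaks were sparser in the stretches than in the rest, while median widths went either way. Median widths were 770 and 881.5 bp in the stretches with YAP, and 932 and 820 bp with TAZ, against 853 and 888 bp (YAP) and 850 and 807 bp (TAZ) in the rest. The mean ratio was 1.00 (exact two-sided paired permutation p = 1). Peaks of 5 kb or more numbered 2 and 1 in the stretches with YAP, and 2 and 0 with TAZ, against 17 and 11 (YAP) and 10 and 5 (TAZ) in the rest. Per Mb this was lower in the stretches in 4 of 4 libraries (exact two-sided paired permutation p = 0.13). All 5 of those in the stretches lay in stretch 1, and stretches 2 and 3 held 0. In stretch 1 alone, TAZ replicate 1 lay above the rest, with 6.67 per Mb, and the other libraries below it. The stretches had 3.64 and 1.82 per Mb with YAP, and 3.64 and 0 with TAZ. The rest had 8.72 and 5.64 (YAP) and 5.13 and 2.56 (TAZ), and the genome 4.88 and 4.02 (YAP) and 3.33 and 4.04 (TAZ). The rest thus lay above the genome in 3 of 4 libraries, and the stretches in 1 of 4. The median −log10 p at a fold of 3 to 4 was 7.44 and 5.52 in the stretches with YAP, and 5.33 and 5.34 with TAZ, against 6.90 and 5.93 (YAP) and 5.22 and 5.34 (TAZ) in the rest. The mean difference of 0.0622 ± 0.393 (SD, n = 4; exact two-sided paired permutation p = 0.625) was within the spread between libraries.

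The 3 stretches were not alike. Stretch 1, the longest, was covered to 28.7% and 24.8% in YAP libraries, and 26.2% and 25.2% in TAZ libraries. Stretch 2, the shortest, had 36.8% and 32.6% with YAP, and 37.2% and 25.7% with TAZ. Stretch 3 had 31.5% and 28.9% with YAP, and 29.7% and 24.9% with TAZ. Each was above the rest in each library, and stretch 2 was the highest of them in each. Stretch 1 held 68 and 66 YAP peaks and 62 and 71 TAZ peaks, stretch 2 held 25 and 23 (YAP) and 22 and 21 (TAZ), and stretch 3 held 36 and 31 (YAP) and 31 and 31 (TAZ). Strong peaks per Mb over those of the rest were 1.15 and 0.609 (YAP) and 0.629 and 1.11 (TAZ) in stretch 1. They were 1.72 and 0.609 (YAP) and 1.89 and 1.67 (TAZ) in stretch 2, and 1.15 and 1.22 (YAP) and 2.52 and 1.11 (TAZ) in stretch 3. These rest on 1 to 6 strong peaks per stretch and library.

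Coverage just outside the stretches lay below that inside in each library, by little with YAP, and above that of the rest as a whole. The 50 kb on either side of the stretches were covered to 29.9% and 27.1% in YAP libraries, and 24.6% and 21.6% in TAZ libraries, against 30.9% and 27.3% (YAP) and 29.2% and 25.2% (TAZ) in the stretches themselves. The rest as a whole had 25.8% and 23.3% (YAP) and 20.2% and 19.6% (TAZ). With the stretches widened by 50 kb, the mean coverage difference from the rest was 5.76 percentage points, beside 5.95 without widening. Only 1 peak, in TAZ replicate 1, crossed a stretch border. The outer ends of the interval were sharper. The first 50 kb inside were covered to 27.8% and 20.6% (YAP) and 24.2% and 18.2% (TAZ), against 9.15% and 3.11% (YAP) and 3.95% and 9.0% (TAZ) in the 50 kb just before them. The last 50 kb inside were covered to 27.7% and 29.6% (YAP) and 22.1% and 19.2% (TAZ), against 13.6% and 14.3% (YAP) and 9.70% and 11.6% (TAZ) in the 50 kb just after.

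In 50 windows of 50 kb, the histone stretches were evenly covered and the rest was patchy. The mean over the 4 libraries ranged between 14.8% and 38.3% in the 11 stretch windows, with a median of 27.8%, and between 0.129% and 55.6% in the 39 windows of the rest, with a median of 22.7%. The SD between windows was 5.99 percentage points in the stretches and 13.6 in the rest. All 11 stretch windows and 35 of the 39 others lay above the genome's median window of 8.53%. The genome's 90th percentile, 42.9%, was passed by 0 stretch windows and by 4 of the rest. Every stretch window held a strong peak of at least 1 library, while 6 of the 39 windows of the rest held none. The share of such windows over the genome is not given here, and with 11 stretch windows no difference was read from this count.

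The 4 most covered windows lay between stretches 2 and 3. The window from 27600001 to 27650000 was covered to 64.1% and 54.7% in YAP libraries, and 52.2% and 51.5% in TAZ libraries. Its neighbour from 27650001 to 27700000 had 62.2% and 56.5% with YAP, and 48.9% and 45.4% with TAZ, and the one from 27550001 to 27600000 had 49.0% or less in each. The window from 27150001 to 27200000, which adjoins stretch 2, had 56.9% and 48.8% with YAP, and 51.5% and 48.0% with TAZ. The fifth was the last 50 kb of stretch 2, with 41.4% and 37.7% with YAP, and 45.1% and 28.9% with TAZ. In all 4 of these outside the stretches, YAP replicate 1 or 2 had the highest coverage. YAP replicate 1 also had the longest list and the highest coverage over the genome, 16.9%.

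The emptiest windows also lay in the rest. From 26750001 to 26800000 only YAP replicate 2 had any coverage, 0.516%, and the window before it had 5.68% or less in each library. The window from 26900001 to 26950000 had 7.85% and 3.53% with YAP, and 5.60% and 1.86% with TAZ. The window from 27950001 to 28000000 had 9.01% and 10.6% with YAP, and 4.17% and 4.52% with TAZ, and that from 26400001 to 26450000 had 11.5% and 10.6% with YAP, and 4.33% and 11.2% with TAZ. The longest stretches with no peak in any library ran from 26762990 to 26803012 (40023 bp), from 26710866 to 26744707 (33842 bp) and from 26932452 to 26950977 (18526 bp). No hg19 sequence was used here, so these stretches are given by position alone.

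**Figure D2:**
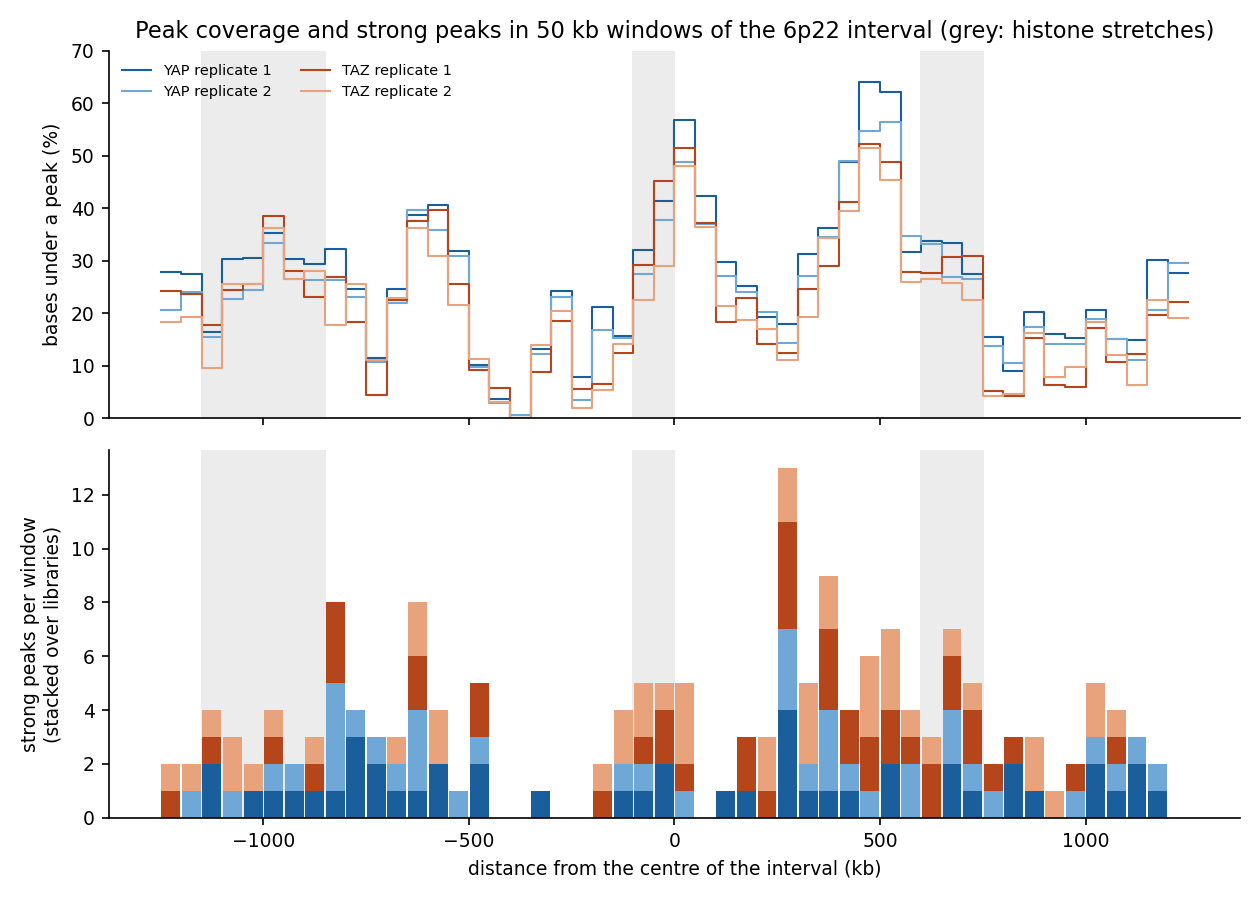
Percent of bases under a deposited peak in each of the 50 windows of 50 kb, by distance from the centre of the interval, for each library (top), and strong peaks per window stacked over the libraries (bottom), with the histone stretches in grey. The stretch windows keep within a mean of 14.8% to 38.3%, and both the fullest and the emptiest windows lie outside them.

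The window with the most strong peaks was not among the most covered. The window from 27400001 to 27450000, chosen after its values were seen, held 13 over the 4 libraries. Its coverage was only 18.0% and 14.3% with YAP, and 12.4% and 11.0% with TAZ. In stretch 1, the window from 26150001 to 26200000 had the highest coverage of that stretch and 1 strong peak in each library.

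YAP coverage was above TAZ coverage in both libraries in the rest of the interval but not in the histone stretches. In the stretches YAP coverage averaged 29.1% ± 2.54 and TAZ coverage 27.2% ± 2.78 (SD, n = 2 each), and the libraries overlapped, as TAZ replicate 1 exceeded YAP replicate 2. The difference of 1.94 percentage points gave an exact two-sided permutation p of 0.667. It was 0.137 without YAP replicate 1 and -0.0275 without TAZ replicate 2, and 3.73 and 3.90 without YAP replicate 2 and TAZ replicate 1. In the rest YAP averaged 24.6% ± 1.73 and TAZ 19.9% ± 0.446 (SD, n = 2 each), and the antibodies did not overlap (difference 4.67, exact two-sided permutation p = 0.33, the smallest possible). As ratios of YAP to TAZ this was 1.07 in the stretches and 1.23 in the rest, against 1.16 over the genome, where the YAP lists were also the longer ones.

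The difference between stretches and rest was then tested itself, after the values had been seen. Within a library, stretch coverage over rest coverage was 1.20 and 1.17 with YAP, and 1.44 and 1.29 with TAZ. The antibodies did not overlap, with means of 1.19 ± 0.0202 for YAP and 1.37 ± 0.109 for TAZ (SD, n = 2 each). The difference of -0.181 had an exact two-sided permutation p of 0.33, which no pattern in 2 against 2 libraries can go below. It was -0.104 without TAZ replicate 1 and -0.258 without TAZ replicate 2. With only peaks of fold 4 or more it was 0.0523, of the opposite sign. Strong peaks in the stretches averaged 9.5 ± 3.54 for YAP and 12 ± 0 for TAZ (SD, n = 2 each), a difference of -2.5 (exact two-sided permutation p = 1). It was 0 without YAP replicate 2 and -5 without YAP replicate 1.

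The windows were compared in the same way. Both YAP libraries lay above both TAZ libraries in 1 of 11 stretch windows and in 24 of 39 windows of the rest, beside 45.5% of 56404 windows of the genome. Both TAZ libraries lay above both YAP libraries in 1 of 11 stretch windows and 0 of 39 others, beside 6.04% in the genome. That window ran from 26150001 to 26200000 and was covered to 35.2% and 33.3% with YAP, and to 38.6% and 36.1% with TAZ. The widest gap in the other direction lay from 26950001 to 27000000, with 21.2% and 16.7% with YAP, and 6.47% and 5.35% with TAZ. Neighbouring windows share peaks and the lists differ in length, so these counts carry no test. With every list cut to as many peaks as the shortest holds, the counts were 1 of 11 in the stretches, 21 of 39 in the rest and 31.6% in the genome. With peaks of −log10 q of at least 2 they were 4 of 11, 25 of 39 and 54.1%.

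**Figure D3:**
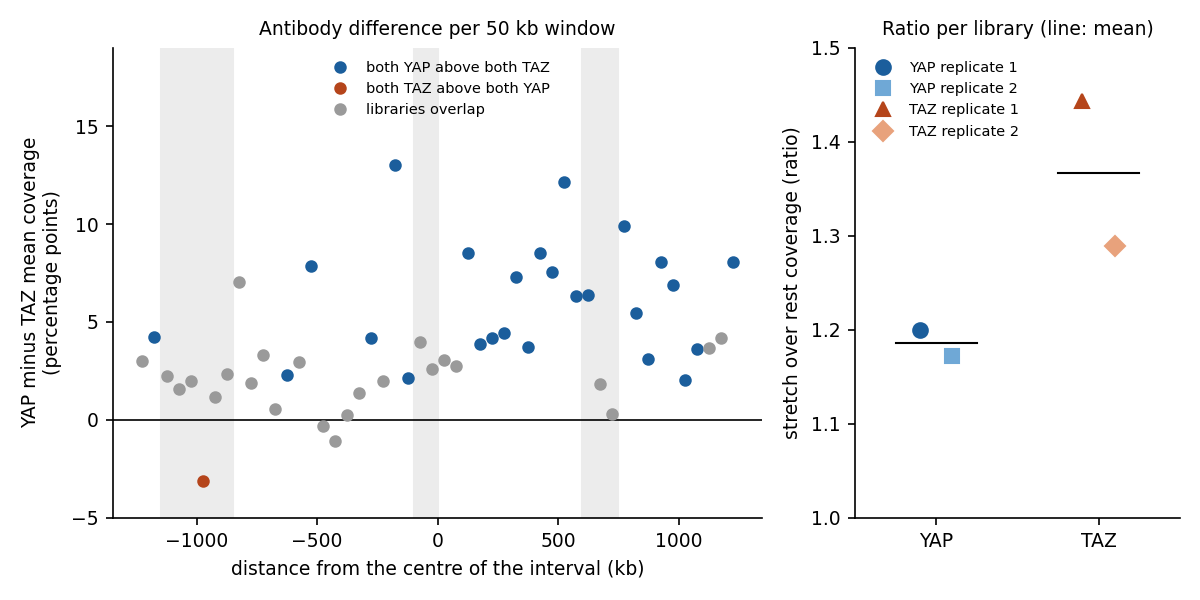
Left, YAP minus TAZ mean coverage in percentage points for each window of 50 kb by distance from the centre of the interval, with the histone stretches in grey and colour for whether the libraries of the antibodies overlap; right, stretch over rest coverage for each library with the mean as a line, on an axis that starts at 1. In the grey stretches 1 window has both YAP libraries on top and 1 has both TAZ libraries, and the ratio is 1.20 and 1.17 with YAP, and 1.44 and 1.29 with TAZ.

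Merging the strong peaks of the 4 libraries where they overlapped by at least 1 bp gave 61788 regions in the genome, of which 134 lay in the interval and 31 of these in the histone stretches. Most were strong in 1 library, 101 of 134, and 27 were strong in 2. Both YAP libraries were strong in 11 regions (8.21%; 6.9% of all regions) and both TAZ libraries in 8 (5.97%; 5.79% of all regions). There were 6 strong in at least 3 libraries (4.48%; background 5.53%) and 2 strong in all 4 (1.49%; background 1.28%). These shares were near those of the genome. A deposited peak of every library, whatever its rank, met 108 of the 134 (80.6%; background 70.9%). Since all lists name one input, these overlaps are between lists that may share a control. Without YAP replicate 2, regions strong in all remaining libraries numbered 4.

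The histone stretches held 3 of the 6 regions strong in at least 3 libraries, none of them in stretch 1. That is 3 of 31 regions in the stretches (9.68%) and 3 of 103 in the rest (2.91%), beside the 5.53% of all regions, and with so few regions no difference was read from these shares. The region strong in all 4 libraries there was chr6:27814283-27814834 in stretch 3. Its fold was 5.04 and 5.01 in YAP libraries, and 4.15 and 4.15 in TAZ libraries, so that both YAP values were higher. Its counterpart in the rest, chr6:27502713-27503202, reached folds of 5.10 and 4.25 with YAP, and 4.99 and 4.18 with TAZ, and there the antibodies overlapped.

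Stretch 2 held both of the other regions of the stretches. At chr6:27053798-27054308 the fold was 4.53 and 4.10 in YAP libraries, and 3.22 and 3.86 in TAZ libraries, and TAZ replicate 1 was the library without a strong peak. At chr6:27123276-27125265, inside the well covered window of stretch 2, it was 4.14 and 3.06 with YAP, and 4.10 and 4.03 with TAZ, and YAP replicate 2 was not strong. The first was reproducible for YAP and the second for TAZ, yet all 4 libraries had a deposited peak at both.

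Outside the stretches, chr6:26344483-26345523 reached folds of 5.29 and 3.71 with YAP, and 4.18 and 3.44 with TAZ, and chr6:27659879-27661542 had 4.20 and 3.08 with YAP, and 4.53 and 4.41 with TAZ. At both, the YAP libraries differed from each other by more than the antibody means did. One region of the interval was selective for YAP, meaning that both YAP libraries were strong there and no TAZ library had a deposited peak: chr6:27435049-27435426, with a fold of 4.34 and 4.30 (0.746% of the interval's regions). Such regions made up 0.113% of all regions for YAP and 0.0178% for TAZ, and 0 of the interval's 134 were selective for TAZ.

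Stretch 3 also held a TAZ region that stood out by its fold and was named after its values were seen, at chr6:27794342-27797430. The fold there was 4.17 and 3.76 with YAP, whose peaks were not strong, and 6.02 and 5.16 with TAZ. Both TAZ values lay above both YAP values. In the same stretch chr6:27816736-27817243 reached folds of 4.14 and 4.14 with YAP, and 2.96 and 2.98 with TAZ, so that neighbouring regions of 1 stretch differed in which antibody had the higher fold. These were picked from many regions, the compared peaks differed in width between libraries, and no test was made.

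**Figure D4:**
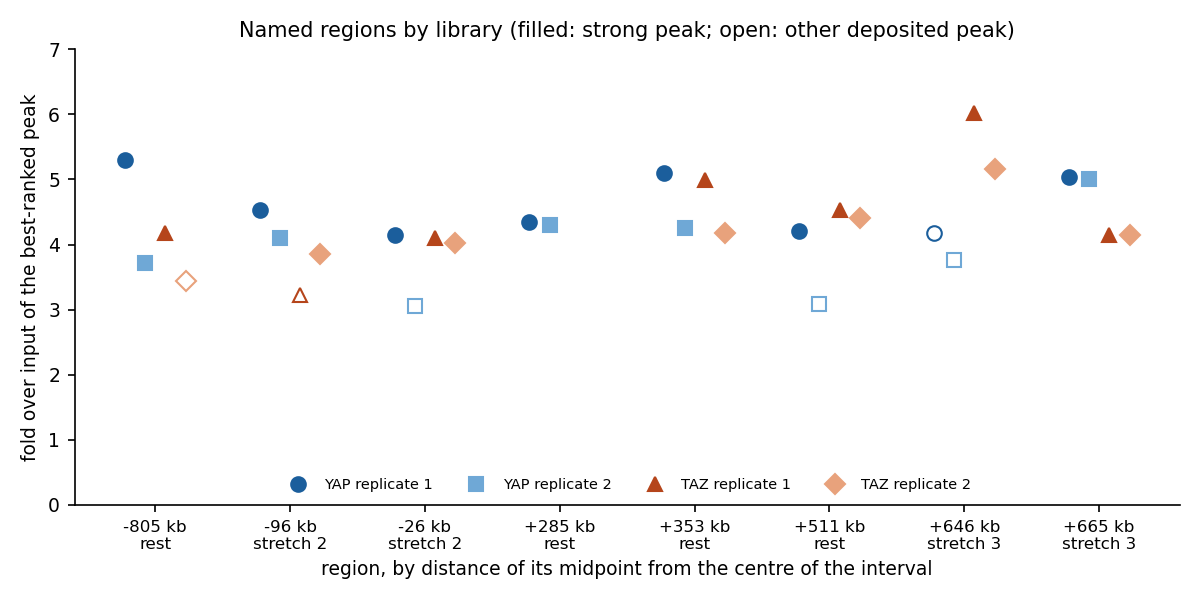
The authors' fold over input of the best-ranked peak of each library in 8 named regions, by distance of the region from the centre of the interval. Filled points are strong peaks and open ones other deposited peaks; the YAP-selective region at +285 kb has no TAZ point, and the region at +646 kb in stretch 3 has the highest TAZ folds.

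The widest peak of each library lay in the rest, which is 1950 kb of the 2.5 Mb. These peaks were chr6:27226468-27235406 in YAP replicate 1 (8939 bp, fold 3.41), chr6:27574142-27583277 in YAP replicate 2 (9136 bp, fold 3.75), chr6:27186889-27197913 in TAZ replicate 1 (11025 bp, fold 3.61) and chr6:26845052-26854925 in TAZ replicate 2 (9874 bp, fold 3.01). Their fold was below 4 in all 4 libraries. The highest fold was 5.29 in YAP replicate 1, in the region at chr6:26344483-26345523 described above, and 5.05 in YAP replicate 2 at chr6:26513233-26513527. In TAZ replicate 1 it was 6.14 at chr6:26973495-26974300, and in TAZ replicate 2 it was 5.16, in the TAZ region of stretch 3. By −log10 q the best peak lay in stretch 3 in 2 of the 4 libraries: in YAP replicate 2 it was the region strong in all 4 libraries, and in TAZ replicate 2 it was chr6:27895652-27895979.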

How the data were processed

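Members and lists were chosen with earlier results of these data known. Per the submitters' processing notes, the authors used cutadapt, Bowtie2, SAMtools and MACS2 with build hg19 (versions: not given in the sources used here). Deposited lists hold broad peaks of each antibody library called against input. The deposited fold is the ratio of antibody to input signal across a peak, and the −log10 p and −log10 q values, also deposited, are the peak caller's. The deposited score was not used. The smallest deposited −log10 q was 1.00 to 1.02. Peak names in all 4 lists named one input, while the list names gave different ones; which was used is not settled.

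The interval was chr6:25900000-28400000 and the stretches chr6:26000000-26300000, chr6:27050000-27150000 and chr6:27750000-27900000. Peaks belonged to a stretch by their midpoint, and coverage was taken from merged peaks. Strong peaks were the 20000 per library with the highest −log10 q on chromosomes 1 to 22 and X. Overlapping strong peaks were merged into regions, reproducible where both libraries of an antibody were strong, and selective if the other antibody had no deposited peak there. Stretches and rest were compared by an exact two-sided paired permutation test over 4 libraries (smallest p 0.125) and antibodies by an exact two-sided permutation test of 2 against 2 (smallest p 0.333). Regions, windows and peaks were named by rule: regions strong in at least 3 libraries or selective, the widest and highest-fold peak of each library, the 5 windows of 50 kb with the highest and the lowest mean coverage, and the longest peak-free stretches; exceptions are marked. Alternatives were thresholds on fold and −log10 q, ranking by fold, 5000 or 50000 strong peaks, lists shortened to the shortest, stretches widened by 50 kb, each library left out, and the replicate number as a block. Python 3.11.15, pandas 2.3.3, numpy 2.4.6, scipy 1.17.1 and matplotlib 3.10.9 were used, and the scripts were tested on simulated peaks. Promoters were read from a RefSeq table of GRCh38.p14, used for names, gene order and sequence alone. Peak lists carry no read totals, so depth is unknown and no counting interval is given.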

Additional observations from a re-analysis of the deposited data

Results flagged for a closer look

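The median width of peaks in the histone stretches over that in the rest of the interval went in opposite directions with the antibodies. It averaged 0.948 with YAP (0.903 and 0.993) and 1.06 with TAZ (1.10 and 1.02), so YAP libraries lay below 1 and TAZ libraries above it. The values of 0.993 and 1.02 were close to 1. By stretch, the antibodies parted in stretch 1 alone (0.821 and 0.767 with YAP, 1.04 and 1.13 with TAZ). Stretch 2 lay above 1 with both (1.18 and 1.23 with YAP, 1.09 and 1.00 with TAZ). In stretch 3 the libraries of each antibody fell on either side of 1 (0.858 and 1.12 with YAP, 1.19 and 0.700 with TAZ). The difference between the antibodies was not tested.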

How the results depend on the processing

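Of 86 alternative values, 61 kept their direction and moved by less than 1 SD between libraries or, for counts of regions and windows, which have no SD, by no more than 1.5 times; 14 moved further and 11 changed sign. Peaks per Mb in the stretches over the rest, 1.29, were 1.32 with a −log10 q of at least 2 and with lists shortened to the shortest, 1.24 with stretches widened by 50 kb and 1.10 with a fold of at least 4. At that fold the coverage difference was 0.278 percentage points and the width ratio 1.18. With 5000 strong peaks per library their ratio was 1.77, with an SD between libraries of 1.17. The median fold difference was 0.00164 with widened stretches, and -0.0677 to 0.0117 with each library left out. The width ratio was 0.978 at a −log10 q of at least 2, 0.982 with shortened lists, 0.976 with widened stretches and 0.970 to 1.04 with each library left out. The difference in median −log10 p was -0.0983 to 0.220 with each library left out. YAP minus TAZ coverage of the stretches was -0.0275 to 3.90 and YAP minus TAZ strong peaks -5 to 0 with each library left out, and the strong peak difference was 1 with 50000 strong peaks. Regions strong in all libraries numbered 1 with 5000 strong peaks, 15 with 50000, 1 with peaks ranked by fold and 2 to 4 with each library left out, when fewer libraries need to be strong. The YAP minus TAZ difference in the stretch to rest ratio was 0.0523 with a fold of at least 4, and both YAP libraries exceeded both TAZ libraries in 4 stretch windows at a −log10 q of at least 2. The cause of these changes was not tested.

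The replicate numbers share only a number: deviations of YAP and TAZ libraries numbered 1 had a correlation of 0.225 over 50 windows, with 2 pairs. With the replicate block, YAP minus TAZ coverage of the stretches was 1.94 (exact two-sided paired permutation p = 0.5, the smallest possible), the strong peak difference -2.5 and the ratio difference -0.181. Library number limits every test here, and unknown depth limits comparisons of list length.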
